A study of Mus musculus with 6 samples.

Results

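The 62 genes described here encode parts of the centrosome, of the augmin complex and of the gamma-tubulin ring. They were taken by symbol from 22057 genes measured by RNA sequencing. The rule took all symbols that begin with Cep, Haus or Tubgcp followed by a digit, and 11 further named genes. All 62 were tested. The cells were neural progenitor cells, cultured precursors of neurons and glia, from mice labelled p53-null, and this genotype was shared by all libraries. In the EF group (n = 3) cells of mice 62, 68 and 69 were kept for 4 days in stem cell medium with EGF, FGF and heparin, the control of the series. In the PDGFA group (n = 3) cells of the same 3 mice were kept for 4 days with PDGFA, the platelet-derived growth factor A chain. As the labels read, PDGFA took the place of EGF, FGF and heparin, so adding one factor and removing others cannot be told apart. The labels do not give the p53 allele, the age of the mice or the passage of the cells.

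The centrosome is the main organiser of microtubules in an animal cell. It consists of a pair of centrioles in a matrix of pericentriolar proteins, and it is copied before each division so that each pole of the spindle receives a centrosome. The gamma-tubulin ring complex starts new microtubules there, and augmin brings it to the sides of existing spindle microtubules so that the spindle can branch. In cells that stop dividing the older centriole can anchor a primary cilium. Neural progenitors depend on this machinery, and human loss-of-function variants of several of its genes, among them STIL, CENPJ, CDK5RAP2, CEP152, CEP135 and SASS6, are known causes of primary microcephaly.

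Library totals ran from 27270246 to 39601349 recovered reads. Trp53 was read in every library, at 1672 to 2383 normalized counts in EF and 988.3 to 1122 in PDGFA, and since the labels do not name the deleted part these reads check nothing about the genotype. Of 8 neural progenitor markers 5 fell and 2 rose, with summed normalized counts of 78545 to 189425 in EF and 48789 to 52387 in PDGFA. Nes fell, from 21108 to 48051 in the EF libraries to 1600 to 3420 with PDGFA, and Sox2 rose, from 8502 to 13553 to a range of 16806 to 18871. All 10 genes listed for dividing cells fell. Their summed level was 49186, 77103 and 110591 in the EF libraries of mice 62, 68 and 69, and 2421 to 2690 in PDGFA. All 9 markers of maturing oligodendrocytes and 4 of 7 astrocyte markers rose, with summed levels of 2710 to 4399 and 44990 to 79672 in EF and of 345118 to 418511 and 157961 to 265453 in PDGFA. Mog, of the oligodendrocyte list, was at 0 in all EF libraries. Of 7 markers of oligodendrocyte precursors 3 fell and 3 rose, with sums of 79136 to 146434 in EF and 125061 to 199915 in PDGFA. The EF library of mouse 68 stood apart in this list: Pdgfra read 14133 there against 861 and 533 in the EF libraries of mice 62 and 69, and Gpr17 read 3702 against 123 and 24.3. Of neuronal markers 2 of 6 tested rose, of endothelial and pericyte markers 1 of 3 tested fell and 2 rose, and microglial markers summed to at most 44.7. In bulk RNA, fewer dividing cells and less RNA per cell cannot be told apart, and the part of either in the results below was not tested.

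Genes of the centrosome and of augmin were mostly lower in PDGFA or did not pass, and few were higher. Of the 62 members, 32 were lower in PDGFA and 2 were higher in limma at a Benjamini-Hochberg adjusted p below 0.05, and 28 did not pass. Over all 17068 tested genes 18.0% were called lower and 21.8% higher. The median log2 fold change was -0.77 over the members and -0.01 over all tested genes. Of the 32 falls 20 were at least 2-fold and 3 at least 4-fold (Cep55, Stil and Haus4), where 12.1% of all tested genes were called with a fall of at least 2-fold. The falls were therefore moderate in most members, with a few far larger ones. All 32 were lower in all 3 mice, which a lower call in itself makes likely. Called or not, 36 of the 62 members and 5268 of the 17068 tested genes were lower in all 3.

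The 3 PDGFA values lay below the 3 EF values in 36 members (26.3% of all tested genes) and above them in 3 members (29.2%). The members whose groups were apart without a call were Cep250, Cep290, Tubgcp3, Cep76 and Cep19. The EF libraries varied more, with a larger SD of normalized counts than PDGFA in 56 of 62 members. That SD tends to grow with the level, which was higher in EF for most called members. The wider spread was not particular to the members: over all tested genes the median SD on the log2 scale was 0.38 in EF and 0.17 in PDGFA. The EF library of mouse 69 was the highest EF library in 43 of 62 members and in 7056 of 17068 tested genes. Without both libraries of mouse 68, which leaves 2 against 2, the calls were 21 lower and 1 higher. Removal of mouse 62 or mouse 69 leaves as many libraries and gave 32 and 28 lower calls. Over all genes the removal of mouse 68 left 1335 lower and 1945 higher calls. Removal of the PDGFA library of mouse 68 alone left 1855 and 2306. Without the EF library of mouse 68 alone, which stood apart in precursor markers, 31 members were lower and 2 higher; the part of those markers in the results was not tested. With any 1 library left out, lower calls among members numbered 27 to 33.

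**Figure D1:**
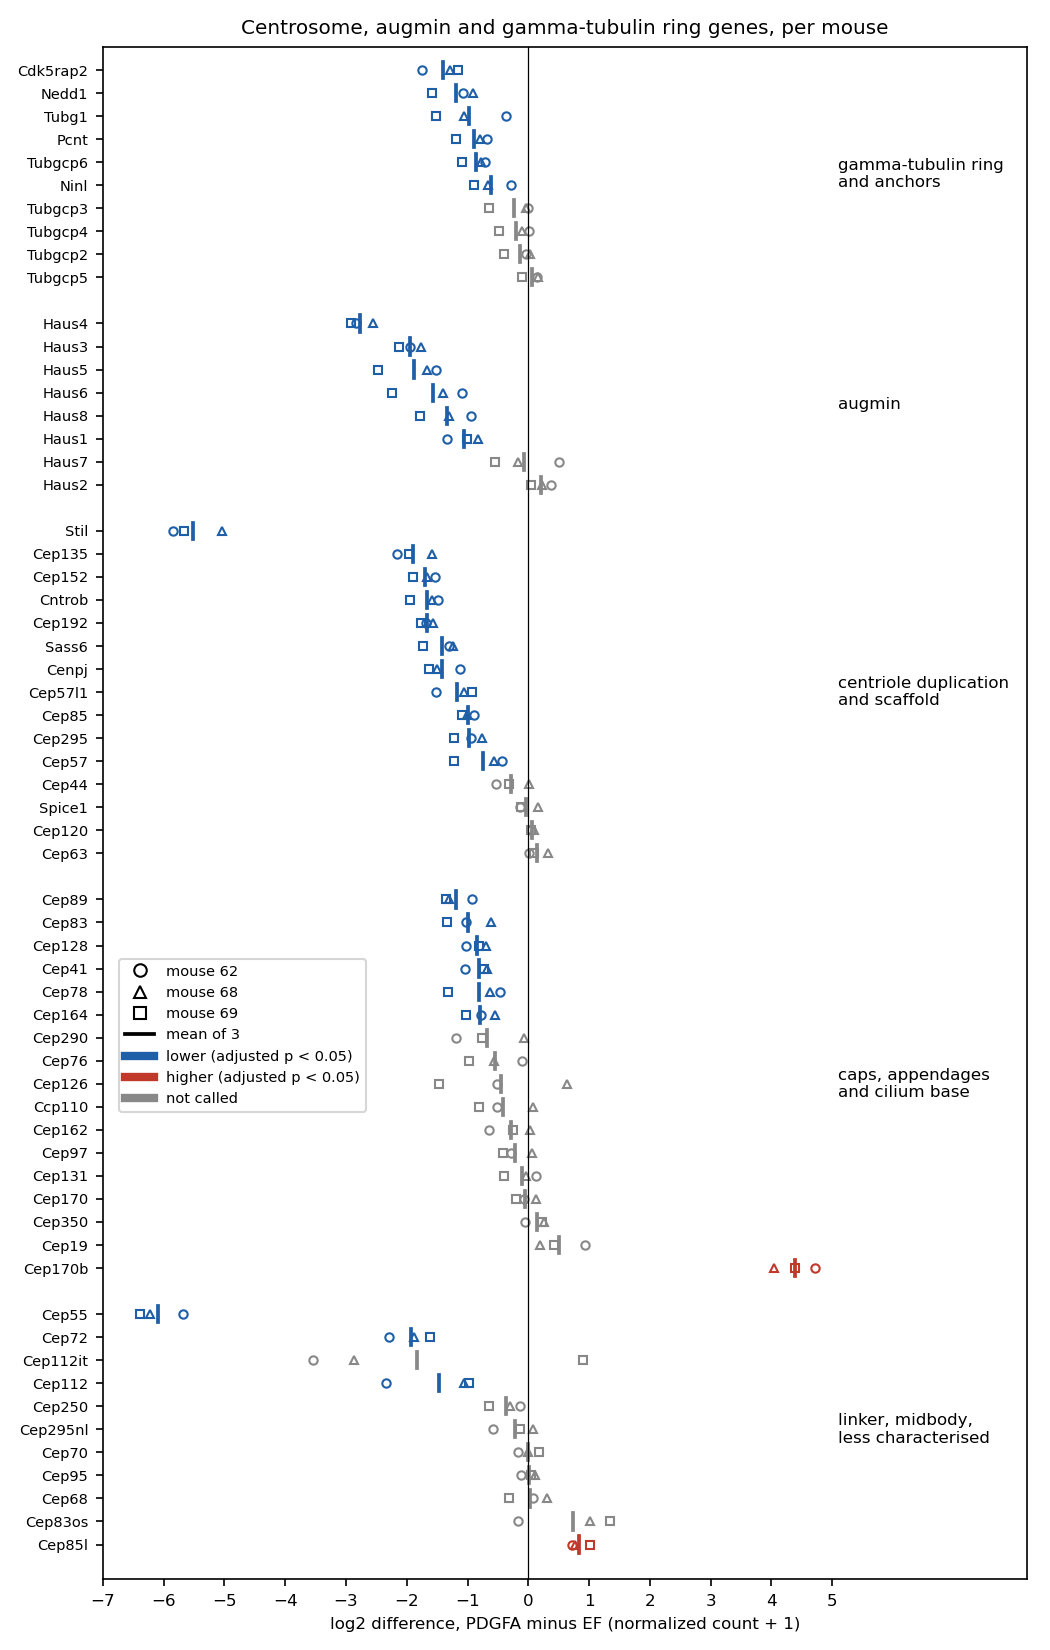
Log2 difference between PDGFA and EF (x axis, PDGFA minus EF on the log2 scale of normalized count + 1) for 61 of the 62 members (y axis), by role. Symbols are mice 62, 68 and 69, vertical bars are means of the 3, and colours mark the limma call: 32 of those drawn are lower, 2 higher and 27 not called.

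Promoter sequences are shown because many members fell together, and promoters of cell-cycle genes often carry the letters searched for here. The 250 bases before the RefSeq start were available for 50 of the 62 members. For 42 of the 50, bases just after a RefSeq start were found near the start of an annotated transcript. Some windows lie wholly in annotated exons, among them those of Haus4 and Sass6, which held matches. The cell cycle homology region (TTTGAA or TTCGAA, both strands) was held by 8 of 50 members (16%) and by 14.5% of all 11327 tested genes with a promoter. The CCAAT box was held by 19 of 50 (38%) against 40.6%, and the E2F-type letters TTTCCCGC or TTTGGCGC by 1 of 50 (2%) against 2.81%. These shares were close to those of all genes. Among the 27 members with a promoter that were called lower, 6 (22.2%) held the cell cycle homology region and 12 (44.4%) a CCAAT box. Among all 2204 genes called lower with a promoter the shares were 17.5% and 43.4%. A match is a description of letters and not a binding site. For a gene with several starts a match at any start was counted. Cep55 held its match at the second of its starts only. The sequences of 3 members that fell and of Cep170b, the member with the largest rise, are printed here as examples. The 3 that fell are among the 12 with a CCAAT box, which most of the 27 lacked. A CCAAT box was also held by 7 of the 23 members with a promoter that were not called lower. Sequences are 5′ to 3′ from RefSeq (GRCm38.p6), with matches to the cell cycle homology region and the CCAAT box in capitals.
Stil (chr4:114999868-115000117, plus strand): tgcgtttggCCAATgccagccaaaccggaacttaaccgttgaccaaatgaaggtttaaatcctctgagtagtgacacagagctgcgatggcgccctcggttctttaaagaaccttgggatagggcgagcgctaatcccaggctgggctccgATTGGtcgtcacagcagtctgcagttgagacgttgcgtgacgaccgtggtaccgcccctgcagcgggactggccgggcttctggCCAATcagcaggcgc
Cep152 (chr2:125625114-125625363, minus strand): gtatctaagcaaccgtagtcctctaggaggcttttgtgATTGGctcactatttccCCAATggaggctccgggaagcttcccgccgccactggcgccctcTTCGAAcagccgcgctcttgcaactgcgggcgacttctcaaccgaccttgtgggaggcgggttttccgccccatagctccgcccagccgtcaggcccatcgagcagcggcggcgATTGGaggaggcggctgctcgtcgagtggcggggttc
Haus6 (chr4:86612056-86612305, minus strand): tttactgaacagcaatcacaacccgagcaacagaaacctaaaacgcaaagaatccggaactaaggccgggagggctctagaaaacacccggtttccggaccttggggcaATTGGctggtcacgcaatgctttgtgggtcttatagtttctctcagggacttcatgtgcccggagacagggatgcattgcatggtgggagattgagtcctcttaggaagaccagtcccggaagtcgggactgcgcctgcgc
Cep170b (chr12:112721924-112722173, plus strand): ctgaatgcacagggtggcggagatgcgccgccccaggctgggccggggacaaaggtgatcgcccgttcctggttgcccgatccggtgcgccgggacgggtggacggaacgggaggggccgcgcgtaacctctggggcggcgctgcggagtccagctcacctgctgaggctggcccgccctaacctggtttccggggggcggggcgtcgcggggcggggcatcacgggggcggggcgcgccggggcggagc
Stil had 3 CCAAT matches, Cep152 had 3 with 1 TTCGAA, Haus6 had 1 CCAAT match, and the Cep170b window held none of these letters. The Cep170b window lies inside the GENCODE span of the gene, which begins at 112720455, and bases before that position were not searched.

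The largest changes among genes of centriole duplication were in Stil, and the other called members of this role had smaller falls. Of 15 members 11 fell and none rose (18.0% and 21.8% of all tested genes), with a median log2 fold change of -1.17. Stil (chr4:115000159-115043196), which recruits the cartwheel protein at the start of a new centriole, had normalized counts of 1678, 2083 and 2822 in EF, in the order of mice 62, 68 and 69 that is kept below, and 28.0, 62.1 and 54.7 with PDGFA. The EF and PDGFA libraries were far apart in every mouse. The means were 2194 ± 580 (SD, n = 3) and 48.2 ± 17.9 (SD, n = 3), a 45.5-fold lower mean, with a log2 fold change of -5.52 (SE 0.34, limma adjusted p = 3.51e-05).

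Cep192 (chr18:67800107-67885170), a scaffold that recruits the kinase Plk4 and pericentriolar material, read 3793, 3486 and 4016 in EF and 1186, 1173 and 1184 in PDGFA. Its PDGFA libraries were nearly equal, and its log2 fold change was -1.67 (SE 0.12, limma adjusted p = 6.53e-05). Cntrob, a protein of daughter centrioles (chr11:69299487-69323775), went from 1355, 1451 and 1746 to 483, 485 and 452, a log2 fold change of -1.67 (SE 0.15). Cep135, a cartwheel and centriole wall protein (chr5:76588698-76646466), went from 1285, 1036 and 1440 to 285, 345 and 370, a log2 fold change of -1.90 (SE 0.19). In none of these genes did the groups overlap. Cep152, which works with Cep192 in bringing Plk4 to the centriole and whose promoter is printed above, fell by 1.70 on the log2 scale, from 905 ± 160 to 275 ± 14.9 (SD, n = 3 each).

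The other called members of this role were Sass6, the cartwheel protein itself (log2 fold change -1.43), Cenpj, which sets centriole length (-1.42), Cep57l1 (-1.17), Cep85, a partner of Stil (-0.996), Cep295, which turns new centrioles into centrosomes (-0.98), and Cep57 (-0.74). Sass6 shares 30.9% of its exon bases with other annotated genes and Cep295 19.1%, so reads of those genes cannot be told apart from theirs. Cep57 had a limma adjusted p = 0.0188, and was not called without any single PDGFA library (adjusted p 0.0533 to 0.071, with log2 fold changes of -0.78 to -0.70, where all alternatives gave 0.00209 to 0.105). Without both libraries of mouse 68, Cenpj (adjusted p = 0.0652; 3.65e-06 to 0.0652 over the alternatives) and Cep57l1 (0.0638; 7.74e-05 to 0.0638) were not called. Cep120, a protein of centriole elongation, read 1807, 1650 and 1794 in EF and 1867, 1768 and 1839 in PDGFA, and the 95% interval of its log2 fold change was -0.22 to 0.34. Cep63, the partner of Cep152, had an interval of -0.23 to 0.51, Spice1 of -0.57 to 0.50 and Cep44 of -0.71 to 0.16. The values leave changes within those limits possible in these 4 members, none of which was called. Stil, Cenpj, Cdk5rap2, Cep152, Cep135 and Sass6, the genes named above for human microcephaly, all fell (6 of 6, where 18.0% of all tested genes were called lower). The set was put together with these values in view and is not a full list of such genes. The count therefore says nothing about microcephaly genes as a class.

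**Figure D2:**
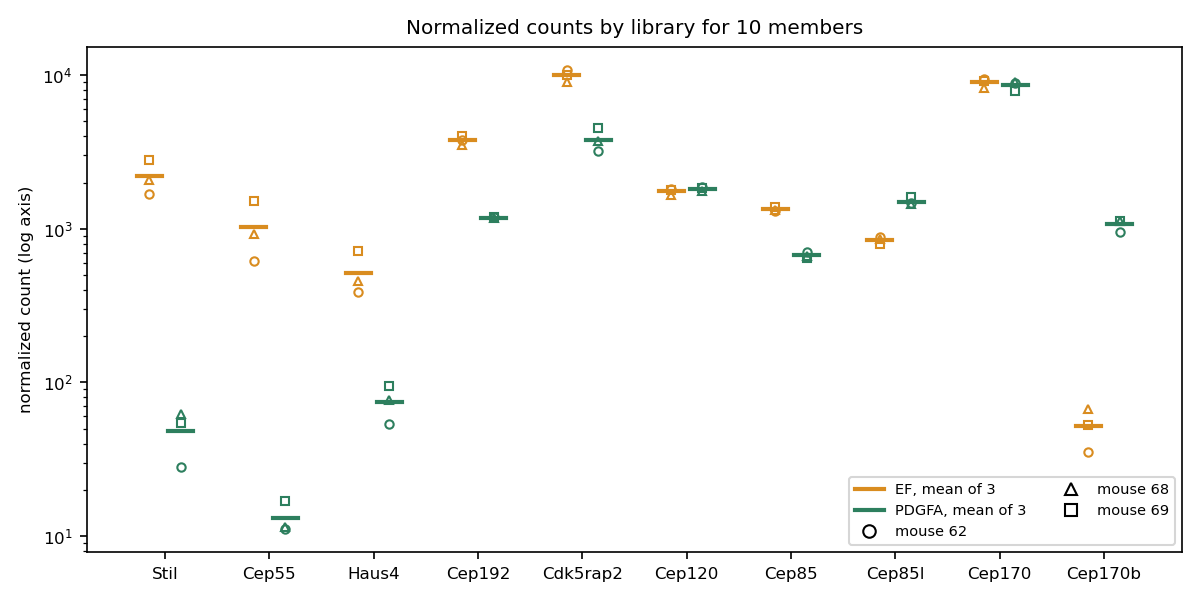
Normalized counts (y axis, log axis) of 10 members (x axis) in the 3 EF and 3 PDGFA libraries. Symbols are mice and horizontal bars are group means; Stil and Cep55 lie far lower in PDGFA, Cep120 and Cep170 overlap between groups, and Cep85l and Cep170b lie higher in PDGFA.

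Of 10 genes of the gamma-tubulin ring and its anchors 6 fell and none rose (18.0% and 21.8% of all tested genes). The median log2 fold change of this role was -0.74. Among the ring subunits of this role only Tubg1 and Tubgcp6 were called. Tubg1, the gamma-tubulin that binds microtubule ends (chr11:101119938-101126419), read 1461, 2268 and 3039 in EF and 1131, 1087 and 1055 in PDGFA. The EF values spread widely and the groups did not overlap, with a log2 fold change of -0.98 (SE 0.25, limma adjusted p = 0.0186). This call was lost without the EF library of mouse 68 (EF 68, adjusted p = 0.0538) and without any single PDGFA library (0.0515 to 0.0646), where the log2 fold change stayed between -1.01 and -0.95, and all alternatives gave 0.000892 to 0.136. Of the 50-base stretches of its transcripts 11.1% also occur in transcripts of other genes, mostly its copy Tubg2, so reads may be split between them. Tubgcp6, the largest ring subunit (chr15:89098357-89123112), read 2266, 2279 and 2666 in EF and 1379, 1322 and 1250 in PDGFA, giving a log2 fold change of -0.86 (SE 0.13, limma adjusted p = 0.00194).

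The other ring subunits did not pass. Tubgcp2 (chr7:139995955-140036669) read 1596, 1642 and 2107 in EF and 1559, 1666 and 1588 in PDGFA. Tubgcp3 (chr8:12614277-12672248) read 2303, 2324 and 3158 against 2283, 2260 and 2027. Tubgcp4 (chr2:121170654-121198770) read 1729, 1694 and 2185 against 1744, 1571 and 1555, with 26.1% of its exon bases inside Trp53bp1 and Zscan29 on the opposite strand. Each had its highest value in the EF library of mouse 69. Tubgcp5 (chr7:55794154-55831677) read 1289, 1246 and 1501 against 1420, 1385 and 1398. The 95% intervals of the log2 fold change were -0.49 to 0.21 for Tubgcp2, -0.61 to 0.15 for Tubgcp3, -0.54 to 0.15 for Tubgcp4 and -0.25 to 0.37 for Tubgcp5. The log2 ratio of Tubgcp6 to Tubgcp5 within a library was 0.84 ± 0.03 in EF and -0.09 ± 0.06 in PDGFA (SD, n = 3 each). That of Tubg1 to Tubgcp3 was -0.25 ± 0.35 in EF and -1.004 ± 0.058 in PDGFA. The two-sided exact permutation p was 0.1 for each ratio, the smallest that 3 against 3 allows, and 0.1 after adjustment over the 6 pairs tested, which were picked with their values known.

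Proteins that attach the ring to the centrosome are represented in this role by 4 genes, and all 4 fell (18.0% of all tested genes). The 4 are not a full list of anchors, and Nin and Akap9 are counted below among other centrosome genes. Nin rose, and Akap9 did not pass (log2 fold change 0.20, limma adjusted p = 0.458). Cdk5rap2, which binds and activates the ring in the pericentriolar matrix (chr4:70216856-70410443), had the highest normalized counts of any called member, with 10804, 9064 and 10010 in EF and 3213, 3712 and 4497 in PDGFA, giving a log2 fold change of -1.40 (SE 0.16, limma adjusted p = 0.000544). Pcnt, pericentrin, the large scaffold of that matrix (chr10:76351263-76442786), read 2731, 2916 and 3609 against 1704, 1674 and 1580, a log2 fold change of -0.89 (SE 0.15). Nedd1, the adaptor that brings the ring to centrosomes and to augmin (chr10:92684746-92722420), read 989, 1047 and 1689 against 468, 560 and 560, a log2 fold change of -1.19 (SE 0.23). In these 3 genes every PDGFA library was below every EF library. Ninl, a ninein-like anchor, fell by 0.62 on the log2 scale (limma adjusted p = 0.0177). Its call ended when the mouse was a block (adjusted p = 0.053), and also without PDGFA 68 (0.0846) or PDGFA 69 (0.0706); the alternatives ran from 0.00152 to 0.18. Its log2 fold change in those removals was -0.60 and -0.57.

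Levels of ring genes were also compared per kilobase of exon, a rough correction for gene length within a library. The length is that of all annotated exons of a gene, which can exceed that of the transcripts present. The order of genes on this scale is therefore approximate. In the ring itself gamma-tubulin is the subunit with most copies, and Tubgcp2 and Tubgcp3 outnumber Tubgcp4, Tubgcp5 and Tubgcp6. In EF the mean level per kilobase was 996 ± 348 (SD, n = 3) for Tubg1, 448 ± 71.0 for Tubgcp2, 303 ± 56.9 for Tubgcp3, 223 ± 32.6 for Tubgcp4, 210 ± 19.8 for Tubgcp6 and 151 ± 15.3 for Tubgcp5. Tubgcp4 and Tubgcp6 lay within their spread of each other. In PDGFA the levels were 482 ± 16.8 for Tubg1, 403 ± 13.9 for Tubgcp2, 256 ± 16.6 for Tubgcp3, 193 ± 12.5 for Tubgcp4, 157 ± 2.002 for Tubgcp5 and 115 ± 5.66 for Tubgcp6. On this scale Tubgcp6 was above Tubgcp5 in each EF library and below it in each PDGFA library, and Tubg1 stood closer to Tubgcp2 in PDGFA. Tubg2 was low in both media, at 40.02 ± 4.72 and 54.1 ± 15.8 per kilobase.

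Most augmin subunits fell. Of the 8 subunits 6 were lower in PDGFA and none higher (18.0% and 21.8% of all tested genes). The median log2 fold change over the complex was -1.46. Haus4 (chr14:54541785-54554616) fell most, from 386, 455 and 715 in EF to 53.5, 76.4 and 94.1 in PDGFA, a 6.95-fold lower mean with a log2 fold change of -2.77 (SE 0.33, limma adjusted p = 0.000581). Haus3 (chr5:34153880-34169527) went from 776, 717 and 903 to 200, 209 and 206, a log2 fold change of -1.95 (SE 0.17, limma adjusted p = 0.000164). Both genes had PDGFA libraries well below all EF libraries. Haus6, the subunit that binds Nedd1 and so the ring (chr4:86578855-86612055), went from 1384, 1781 and 2738 to 652, 674 and 578, a log2 fold change of -1.58 (SE 0.25, limma adjusted p = 0.00225).

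Haus8, the subunit that binds the microtubule (chr8:71248561-71272934), went from 360, 521 and 761 to 188, 209 and 220 (log2 fold change -1.35, SE 0.29). Haus1 (chr18:77757567-77773886) went from 627, 546 and 754 to 248, 307 and 375 (log2 fold change -1.06, SE 0.22). Haus5 (chr7:30653711-30664994) went from 99.6, 124 and 148 to 33.9, 38.2 and 26.0 (log2 fold change -1.89, SE 0.32). The groups did not overlap in any of the 3. Haus5 shares 56.5% of its exon bases with Gm21982, an annotated gene on the same strand, so its reads are uncertain. Haus8 and Haus1 were not called without both libraries of mouse 68 (adjusted p of 0.0846 and 0.061, the upper ends of ranges that began at 3.4e-05 and 0.000106 over the alternatives).

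Haus2 and Haus7 were the subunits that did not pass. Haus2 (chr2:120609383-120621560) read 712, 822 and 961 in EF and 917, 960 and 992 in PDGFA, with a 95% interval of the log2 fold change from -0.16 to 0.58. Haus7 (chrX:73437315-73459044) read 394, 601 and 782 in EF and 558, 534 and 532 in PDGFA, with an interval from -0.67 to 0.52. Both overlapped between the groups. The log2 ratio of Haus4 to Haus2 within a library was -0.72 ± 0.26 in EF and -3.72 ± 0.36 in PDGFA (SD, n = 3 each), and that of Haus6 to Haus2 was 1.19 ± 0.28 and -0.59 ± 0.16. The two-sided exact permutation p of each was 0.1, the smallest possible here. Both pairs were picked with their values known, so this p adds nothing to the calls of the single genes.

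Per kilobase of exon, the augmin genes were also less even in PDGFA. With Haus5 left aside for its overlap, the highest subunit was 4.01 to 5.49 times the lowest in the 3 EF libraries and 9.36 to 17.2 times in the 3 PDGFA libraries. Haus7 was the highest of them in every library. The lowest was Haus8 or Haus1 in EF and Haus4 in PDGFA. These ranks and ratios rest on annotated exon lengths, from 1438 bases in Haus7 to 7167 in Haus1, which may differ from the transcripts present. Mean levels per kilobase in EF were 412 ± 135 for Haus7, 305 ± 108 for Haus6, 259 ± 38.8 for Haus2, 218 ± 72.9 for Haus4 and 206 ± 24.5 for Haus3, and neighbours in that order lay within their spread. In PDGFA Haus7 and Haus2 stood at 376 ± 9.91 and 297 ± 11.6, and Haus6, Haus3 and Haus4 at 98.3 ± 7.80, 53.0 ± 1.16 and 31.4 ± 8.56.

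**Figure D3:**
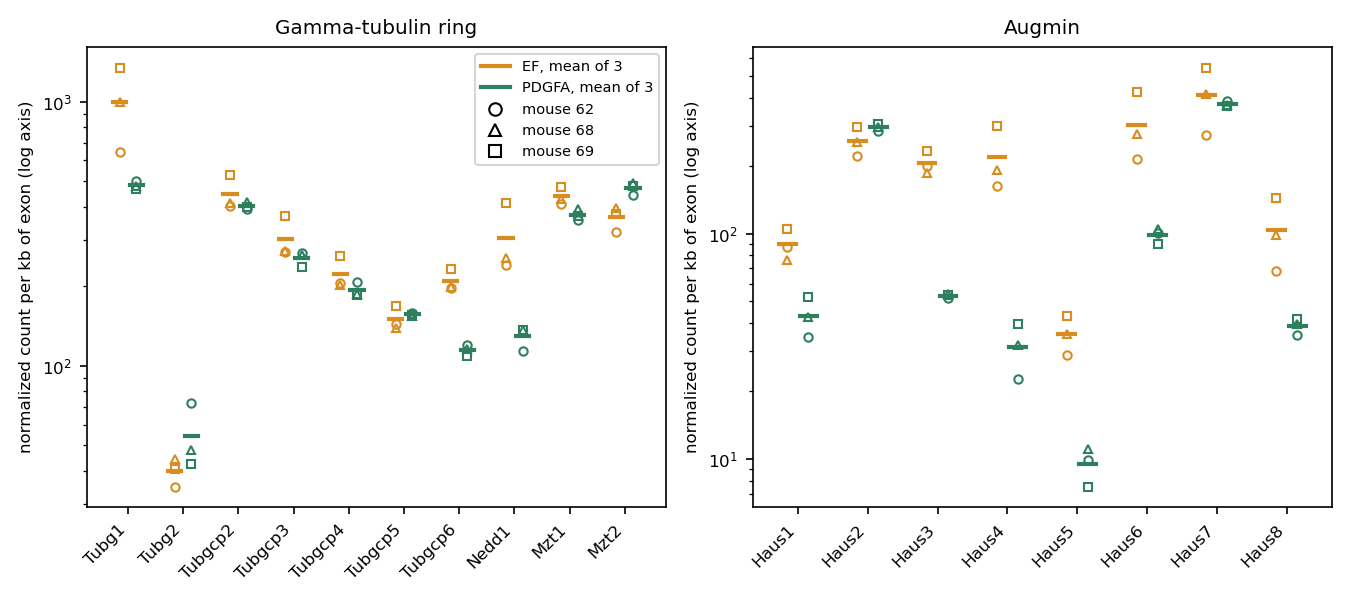
Normalized counts per kilobase of exon (y axis, log axis) of gamma-tubulin ring genes (left) and augmin genes (right) in EF and PDGFA. Symbols are mice and bars are means of 3 libraries; Tubgcp2, Tubgcp4, Tubgcp5, Haus2 and Haus7 overlap between media, Tubgcp3 is narrowly apart without a call, and the other Haus genes and Tubgcp6 lie lower in PDGFA. Mzt1, Mzt2 and Tubg2 are shown beside the ring members.

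Genes of centriole caps, of the appendages that dock the older centriole to the membrane and of the cilium base held 6 falls and 1 rise among 18 members. These are 33.3% and 5.56%, against 18.0% and 21.8% of all tested genes. The median log2 fold change of this role was -0.43. The falls included 3 proteins of the distal appendages. Cep83, which is first to the appendage (chr10:94688654-94790853), read 1412, 1106 and 1674 in EF and 690, 724 and 659 in PDGFA, giving a log2 fold change of -0.995 (SE 0.18, limma adjusted p = 0.00431). Cep89 (chr7:35397035-35438689) read 679, 1063 and 1174 against 356, 430 and 457, a log2 fold change of -1.20 (SE 0.24). Cep164, which recruits the kinase that starts cilium growth (chr9:45766946-45828691), read 1597, 1338 and 1953 against 928, 910 and 956, a log2 fold change of -0.79 (SE 0.17). None of the 3 overlapped between the media.

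Cep41, needed for the modification of tubulin in cilia (chr6:30653457-30693749), read 510, 474 and 500 against 249, 295 and 300, a log2 fold change of -0.82 (SE 0.18). Cep78 and Cep128 fell by 0.81 and 0.85 on the log2 scale, and both calls were lost in some removals of 1 library, which leave 3 against 2. Cep78 was not called without PDGFA 68 or PDGFA 69 (adjusted p of 0.0651 and 0.065; 0.0013 to 0.0969 over the alternatives), with log2 fold changes of -0.80 and -0.75. Cep128 lost its call without EF 68 (0.0502), PDGFA 62 (0.069) or PDGFA 68 (0.0552), with alternatives of 0.00303 to 0.12 and log2 fold changes of -0.86, -0.65 and -0.92 in these 3 removals. Without both libraries of mouse 68, 2 of the 18 genes of this role were called lower, and Cep41 and Cep89 were among those lost (adjusted p of 0.101 and 0.0785, from 3.86e-05 and 2.11e-05 at the lower end).

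Cep170b was the exception of this role and the largest rise of all members. Cep170b, a relative of the subdistal appendage and microtubule protein Cep170 (chr12:112720455-112746592), read 35.4, 67.6 and 52.4 in EF and 957, 1128 and 1119 in PDGFA. Every PDGFA library was more than an order of magnitude above the EF library of the same mouse. The means were 51.8 ± 16.1 and 1068 ± 96.4 (SD, n = 3 each), a 20.6-fold higher mean with a log2 fold change of 4.38 (SE 0.28, limma adjusted p = 3.57e-05). Cep170 itself (chr1:176733653-176814067) had the highest counts in PDGFA of any member, with 9457, 8308 and 9152 in EF and 8946, 9013 and 7932 in PDGFA, and its interval was -0.37 to 0.25. The log2 ratio of Cep170b to Cep170 was -7.48 ± 0.56 in EF and -3.02 ± 0.20 in PDGFA (two-sided exact permutation p = 0.1, the smallest possible). This pair too was picked with its values known. The share of 50-base stretches of Cep170b that occur in other genes was 0.18%, and Cep170 was not among the 3 genes that shared most.

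The uncalled members of this role had log2 fold changes between -0.67 and 0.51. Among them were the centriole cap proteins Ccp110 (-0.42, adjusted p = 0.245) and Cep97 (-0.22, adjusted p = 0.29), which hold back cilium growth, and Cep350 (0.14), Cep131 (-0.10), Cep162 (-0.29) and Cep126 (-0.45). Their groups overlapped. Cep290, a gate protein of the cilium base (-0.67, adjusted p = 0.0701), and Cep76 (-0.55, adjusted p = 0.0944) were lower in all 3 mice, and Cep19 (0.51, adjusted p = 0.13) was higher in all 3. Cep290 was called without EF 68 (adjusted p = 0.0106) and by DESeq2 (0.0278), in a range of 0.0106 to 0.301. Cep76 was called without EF 62 (0.0196), with total-read scaling (0.0362) and by DESeq2 (0.0498), in a range of 0.0196 to 0.336.
Of 10 markers of multiciliated cells, which make many centrioles, 5 were tested and 3 rose. Their summed level was 147 to 299 in EF and 743 to 1125 in PDGFA and was mostly Foxj1. Mcidas, Gmnc, Deup1 and Pifo of that list were not among the 22057 genes, and the part of such cells in these values was not tested.

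The remaining 11 members, proteins of the centriole linker, the midbody and less studied genes, held 3 falls and 1 rise. These are 27.3% and 9.09%, against 18.0% and 21.8% of all tested genes. The median log2 fold change of this role was -0.21, and it held the largest fall of the 62. Cep55, which gathers the machinery that cuts the bridge between daughter cells (chr19:38055011-38074423), read 616, 930 and 1512 in EF and 11.03, 11.5 and 17.0 in PDGFA. The lowest EF library was far above the highest PDGFA library. The means were 1019 ± 455 and 13.2 ± 3.34 (SD, n = 3 each), a 77.4-fold lower mean with a log2 fold change of -6.10 (SE 0.38, limma adjusted p = 3.57e-05). Mki67, the proliferation antigen of the dividing-cell list, read 17595, 27183 and 33851 in EF and 143, 213 and 253 in PDGFA. Both genes were lowest in mouse 62 and highest in mouse 69 within EF.

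Cep72, a centriolar satellite protein (chr13:74036500-74062299), read 744, 681 and 688 against 150, 183 and 224, a log2 fold change of -1.93 (SE 0.21, limma adjusted p = 0.000364). Cep112 (chr11:108425192-108860615) read 698, 313 and 376 against 137, 149 and 190, a log2 fold change of -1.46 (SE 0.33, limma adjusted p = 0.0108). For Cep112 the EF library of mouse 62 was the highest. Cep85l, the relative of Cep85 (chr10:53273443-53379947), was the second riser, with 890, 855 and 793 in EF and 1462, 1452 and 1598 in PDGFA, giving a log2 fold change of 0.83 (SE 0.13, limma adjusted p = 0.00235). It was not called without both libraries of mouse 68 (adjusted p = 0.0515; 4.28e-07 to 0.0515 over the alternatives). Cep85 went the other way, from 1302, 1332 and 1383 to 704, 663 and 647. The log2 ratio of Cep85 to Cep85l was 0.66 ± 0.13 in EF and -1.16 ± 0.13 in PDGFA (two-sided exact permutation p = 0.1, the smallest possible). This pair was also picked with its values known.

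Cep250 and Cep68, which link the centrioles of a pair between divisions, did not pass, with log2 fold changes of -0.36 (adjusted p = 0.11) and 0.02 (adjusted p = 0.915). Cep250 was called when libraries were scaled by their total reads (adjusted p = 0.0385; 0.0385 to 0.328 over the alternatives). Cep70 and Cep95 lay at about 0, with intervals of -0.39 to 0.38 and -0.33 to 0.35. Cep83os, a noncoding transcript that starts beside Cep83 in the opposite direction, read 286, 159 and 121 in EF and 254, 321 and 310 in PDGFA, while Cep83 fell. Its call appeared only without EF 62 or without both libraries of mouse 62 (adjusted p of 0.00999 and 0.023; 0.00999 to 0.463 over the alternatives). Cep112it, a noncoding transcript within the span of Cep112, had 77 reads in all (19.1% of its 50-base stretches also occur in other genes) and Cep295nl 193, too few for a precise fold change; the intervals were -3.82 to 0.15 and -1.03 to 0.60. Cep112it was called without EF 69 (adjusted p = 0.0194) and without both libraries of mouse 69 (0.0155), in a range of 0.0155 to 0.486.

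Of 40 other centrosome genes that are not members, 21 were lower and 1 higher (18.0% and 21.8% of all tested genes). Their median log2 fold change was -0.71. Plk4, the kinase that starts centriole duplication together with Stil, read 1569, 1997 and 3306 in EF and 115, 135 and 157 in PDGFA, giving a log2 fold change of -4.01 (SE 0.29, limma adjusted p = 6.29e-05). The falls with the smallest p were Aspm, a spindle pole protein (-6.50, SE 0.17), Nek2, the kinase that parts the centriole linker (-7.39, SE 0.32), and Tacc3, a spindle protein (-3.83, SE 0.20). Nek2, Aspm and Plk1 (-6.49) fell further than every member, and Tpx2 (-5.54) further than every member but Cep55. Aurka (-4.66), Plk4, Tedc1 (-3.96), Tacc3 and Kif24 (-3.09) fell further than every member but Cep55 and Stil. Nin, ninein, an anchor of microtubules at the subdistal appendages, rose, from 3249, 2997 and 4999 to 8205, 8430 and 6772 (log2 fold change 1.09, SE 0.21, limma adjusted p = 0.00615), and was not called without both libraries of mouse 68 (adjusted p = 0.0824, the highest over the alternatives, which began at 0.000122). The small ring subunits Mzt1 and Mzt2 and the second gamma-tubulin Tubg2 did not pass, with log2 fold changes of -0.23 (95% interval -0.55 to 0.09), 0.37 (-0.01 to 0.76) and 0.40 (-0.33 to 1.13). Without EF 62 the higher calls of this list were 3, with Ofd1 and Pibf1 (adjusted p of 0.0153 and 0.0259) beside Nin, and without both libraries of mouse 68 there were none.

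**Figure D4:**
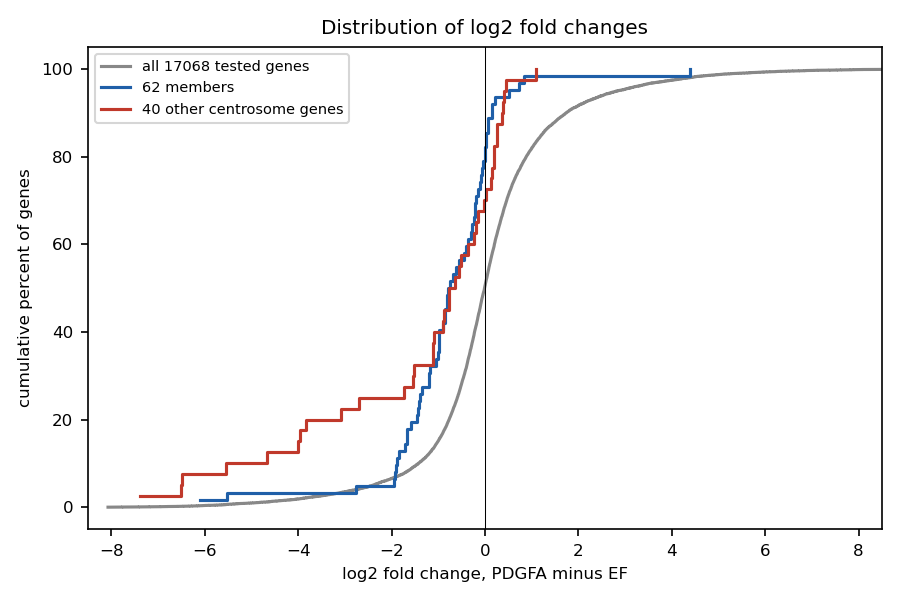
Cumulative percent of genes (y axis) by log2 fold change, PDGFA minus EF (x axis), for the 62 members, the 40 other centrosome genes and all 17068 tested genes. The curve of the members runs to the left of that of all genes over most of its length, with medians of -0.77 and -0.01.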

How the data were processed

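Per the labels' protocols, 6 libraries were made from 1.3 ug of total RNA each (NEBNext Ultra II, E7770), a preparation without strand information. The authors deposited a single table that holds a normalized signal for each gene: reads scaled by a factor of the library. FastQC, STAR and DESeq2 on mm10 (GRCm38) are named in the submitters' processing notes. For the annotation and any filter, nothing is given in the sources used here. All values (100%, tolerance 0.001) were multiples of the value of 1 read, so whole reads could be recovered; no listed gene had fewer than 10 in total.

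Genes with a mean of at least 10 (17068; 4989 left out) were put on the scale log2(normalized count + 1) and compared with limma 3.58.1 (trend) in R 4.3.3, two-sided, on the medium alone, at a Benjamini-Hochberg threshold of 0.05. The scale understates changes of genes with few reads. The alternatives were edgeR 4.0.16 and DESeq2 1.42.0 on recovered reads, other pseudocounts, filters and scalings, the mouse as a block, and removal of libraries. Titles carry a mouse number, and both libraries of a number come from 1 animal. The deviations of its libraries from their group means correlated at -0.09, 0.11 and -0.11. Replicates differed by more than counting noise (chi-square over its degrees of freedom, 20.0 to 140). Members and lists were chosen with earlier results of these data known. The values of 1 member, which is counted in all totals, are not reported here. From each role, values in every library are given for up to 4 falls and 3 rises with the smallest p, and for all ring and augmin subunits. Coordinates and exon lengths are from GENCODE M21 (GRCm38), by symbol. Promoters are from RefSeq. The fit was tested on simulated data with the same dispersion in both groups. In these data the spread was larger in EF, a case that the simulation did not cover. The labels name no molecular identifiers, so reads are not independent molecules.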

Additional observations from a re-analysis of the deposited data

How the results depend on the processing

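Of the 34 calls among members, 29 held in every removal of 1 library and 22 in all alternatives. Lower calls among members were 31 with the mouse as a block (the replicate pairing; Ninl was the one lost) and 32 with edgeR. DESeq2 and total-read scaling each gave 34. No called gene changed direction. Over removals of 1 library or 1 mouse, lower calls ran from 21 to 33 and higher calls from 1 to 3 among members, from 2 to 7 for lower calls in the caps and cilium base role, from 0 to 2 for higher calls in the linker and midbody role, and from 0 to 3 for higher calls among other centrosome genes. Over all tested genes the same removals gave 1335 to 3848 lower and 1945 to 4213 higher. The lowest counts came without mouse 68, which leaves 2 libraries a group. Removal of mouse 62 or mouse 69 leaves the same number and gave 32 and 28 lower members, against 21 without mouse 68. Over all tested genes these removals gave 2876 and 2076 lower calls, against 1335 without mouse 68. What sets mouse 68 apart in this was not tested.

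Among the genes reported, signs reversed only in those that were not called. Total-read scaling gave log2 fold changes of -0.038 for Cep68, -0.048 for Cep95, -0.0011 for Cep120 and -0.032 for Numa1. Cep70 was 0.0024 with TMM and 0.0064 with edgeR. Removals of 1 library or 1 mouse gave -0.14 to 0.019 for Cep170, -0.36 to 0.17 for Haus7, -0.99 to 0.058 for Cep126, -0.087 to 0.081 for Cep70, -0.12 to 0.19 for Cep68, -0.055 to 0.085 for Cep95, -0.22 to 0.046 for Cep131, -0.17 to 0.15 for Spice1, -0.32 to 0.022 for Cetn3, -0.12 to 0.049 for Crocc and -0.0895 to 0.12 for Numa1. Depth limits Cep112it and Cep295nl, each under 300 reads in all. With 1 library per mouse and medium, p-values measure the spread between these mice and cultures only.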
